A study of Mus musculus with 620 samples.

Results

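Exenatide is a peptide that activates the glucagon-like peptide-1 receptor, and its short-term effect on the hippocampus of aged mice was measured by bulk RNA sequencing of 10 libraries, out of 620 in the whole series. They were all the hippocampal libraries of the ST cohort titled ST_A_Ex or ST_A_ctrl, and each came from a different animal. ST_A_Ex were aged mice given exenatide for a short term (n = 5), and ST_A_ctrl were aged controls of the same cohort (n = 5). The series also holds ST_A_Ex_KD and ST_A_ctrl_KD, the corresponding pair of aged mice with knockdown of the receptor in the hypothalamus (n = 5 each), ST_A_rapa, aged mice given rapamycin, an inhibitor of the mTOR kinase (n = 5), and ST_Y_ctrl, young controls (n = 5). Frontal cortex was sequenced from the ST animals as well. The LT cohort gave hippocampi of aged mice given exenatide for a long term (n = 8), aged controls (n = 9) and young controls (n = 8). The YA cohort gave hippocampi of young adult mice, exenatide-treated (n = 8) and control (n = 8). Doses, ages, durations, strain and sex, the injections the controls received and the tool used for the knockdown are not given in the sources used here.

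Memories of places and events are formed in the hippocampus, a part of the forebrain. Its dentate gyrus, CA3 and CA1 fields pass signals through excitatory granule and pyramidal neurons, held in check by interneurons that release GABA. The GLP-1 receptor couples to the stimulatory G protein: it raises cyclic AMP, which activates protein kinase A and the exchange factors Epac1 and Epac2, and protein kinase A phosphorylates the transcription factor CREB. CREB is also engaged by neuronal firing and drives immediate early genes such as Fos and Egr1. GLP-1 receptor agonists are known in rodents to activate the hypothalamus-pituitary-adrenal axis, whose end product, corticosterone, acts on brain cells through the glucocorticoid receptor.

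Markers of the tissue were checked first. C1ql2, which marks dentate granule cells, had 81.8 to 119.5 CPM in hippocampus and 0.156 to 0.911 CPM in frontal cortex over the 10 animals, and Dsp, another granule cell marker, had 58.3 to 86.2 CPM in hippocampus and 0.427 to 1.56 CPM in frontal cortex. Prox1, a transcription factor of granule cells, had 118 to 199 CPM in hippocampus and 23.6 to 33.5 CPM in frontal cortex. The regions did not overlap for any of these genes. Fibcd1, a marker of the CA1 field, did not overlap either, at 113 to 199 CPM in hippocampus and 8.46 to 12.4 CPM in frontal cortex. Wfs1, also of CA1, did overlap, at 98.0 to 192 CPM in hippocampus and 94.7 to 152 CPM in frontal cortex. The choroid plexus transcript Ttr ranged from 17.8 to 320.1 CPM across the 10 hippocampi, and the summed choroid plexus markers were 262 to 336 CPM in ST_A_Ex and 268 to 854 CPM in ST_A_ctrl. CPM, the unit of level used throughout, are counts scaled to the size of the library (counts per mega) after TMM scaling, which brings the bulk of genes to the same level between libraries.

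The hippocampal libraries of the groups differed in depth and in make-up. Total counts were 30.1 to 56.2 M in ST_A_Ex and 22.7 to 26.4 M in ST_A_ctrl (M, mega), with no overlap. At least 1 read was counted for 23906 to 26000 genes in ST_A_Ex and 22370 to 22945 in ST_A_ctrl. Transcripts under 1000 bases stood higher relative to those over 3000 bases in every ST_A_Ex library: the difference of their mean log2 deviations was 0.0485 to 0.146 in ST_A_Ex and -0.142 to -0.0121 in ST_A_ctrl. The other groups were at 0.0144 to 0.0841 (ST_A_Ex_KD), -0.301 to 0.00163 (ST_A_ctrl_KD), 0.0235 to 0.0914 (ST_A_rapa) and 0.037 to 0.0927 (ST_Y_ctrl). All 10 ST_A_ctrl and ST_A_ctrl_KD hippocampi lay below all 20 other hippocampi of the cohort for 569 of 18586 genes and above them for 263 genes. All 10 ST_A_Ex and ST_A_Ex_KD hippocampi lay above all 20 others for 0 genes and below them for 2, Ube2d3, a ubiquitin-conjugating enzyme, and Polr3f, a subunit of RNA polymerase III. What sets the 10 hippocampi of aged controls apart was not tested. Exenatide and this difference between libraries cannot be told apart within the pair ST_A_Ex and ST_A_ctrl. Nor can they be told apart within the pair ST_A_Ex_KD and ST_A_ctrl_KD. These being the only controls of each pair, no value without them can be given.

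**Figure D1:**
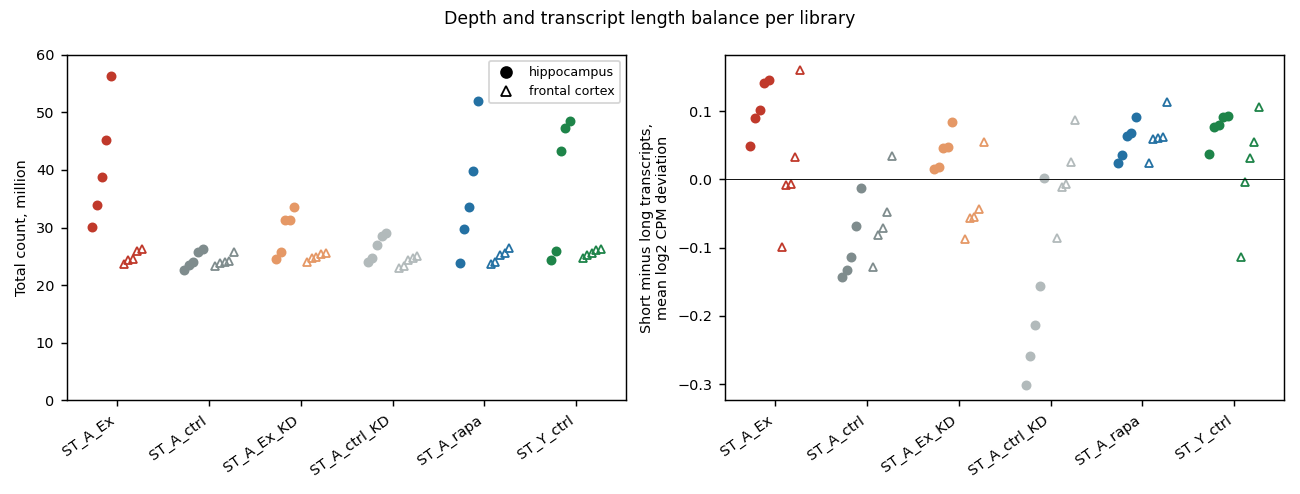
Total count in M (left) and the mean log2 CPM deviation of transcripts under 1000 bases minus that of transcripts over 3000 bases (right), 1 point per library, in hippocampus (filled circles) and frontal cortex (open triangles) of the 6 ST conditions. In hippocampus all 5 ST_A_Ex libraries lie above all 5 ST_A_ctrl libraries on both axes, and in frontal cortex the ranges of these groups overlap.

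Exenatide-treated hippocampi differed from aged control hippocampi at 5311 of 18586 tested genes, of which 2630 were higher and 2681 lower in ST_A_Ex (edgeR quasi-likelihood test, Benjamini-Hochberg adjusted p under 0.05). This is 28.6% of the genes tested, 14.2% upward and 14.4% downward, and these shares are the background against which each gene group is read. Most differences were small, with a median absolute log2 fold change of 0.32 among the called genes. A change of at least 2-fold was seen for 334 genes that rose and 80 that fell. The groups did not overlap for 3755 genes (20.2% of those tested), 3440 of them among the called. Log2 fold changes are given below with their standard error after ±. Genes that rose had shorter transcripts, with a median length of 897 bases, than genes that fell, with a median of 2129 bases, or all tested genes, with a median of 1506 bases. The length and GC content of a gene are medians over all its transcripts in the GENCODE annotation, not weighted by expression. They can differ from those of the RNA expressed. In these bulk samples fewer cells of a type and less RNA per cell cannot be told apart.

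The receptor itself was barely detected. Glp1r had 14, 16, 20, 22 and 27 reads in the 5 ST_A_Ex hippocampi, against 8, 13, 15, 33 and 63 reads in the 5 ST_A_ctrl hippocampi, that is 0.345 to 0.849 CPM in ST_A_Ex and 0.348 to 2.48 CPM in ST_A_ctrl. The groups overlapped (log2 fold change -1.10 ± 0.59, edgeR adjusted p = 0.172). Hippocampal Glp1r does not check a knockdown made in the hypothalamus, and its levels of 0.179 to 0.288 CPM in ST_A_Ex_KD and 0.108 to 1.42 CPM in ST_A_ctrl_KD are given as description. Of 17 tested genes around the incretin receptors and cyclic AMP, 3 rose and 4 fell, with a median log2 fold change of -0.13, beside 0.0095 over all genes.

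Of the signalling genes downstream of cyclic AMP, Pde4b, Rapgef4 and Creb1 fell and Prkaca rose. Pde4b, a phosphodiesterase that breaks down cyclic AMP, had 71.8, 72.5, 73.5, 76.5 and 81.3 CPM in the ST_A_Ex libraries. In ST_A_ctrl Pde4b had 88.8, 88.9, 90.1, 94.2 and 96.1 CPM. No ST_A_Ex library reached an ST_A_ctrl library (log2 fold change -0.29 ± 0.048, edgeR adjusted p = 3.70e-05). Rapgef4, which encodes Epac2, fell with 642 to 686 CPM in ST_A_Ex against 748 to 813 CPM in ST_A_ctrl (log2 fold change -0.25 ± 0.058, edgeR adjusted p = 0.0015), and Creb1 fell with 47.6 to 59.3 CPM in ST_A_Ex against 61.7 to 68.6 CPM in ST_A_ctrl (log2 fold change -0.29 ± 0.053, edgeR adjusted p = 1.39e-04); neither gene's groups overlapped. Prkaca, the main catalytic subunit of protein kinase A, rose with overlapping groups, 188 to 211 CPM in ST_A_Ex against 156 to 193 CPM in ST_A_ctrl (log2 fold change 0.22 ± 0.054, edgeR adjusted p = 0.00212). In the knockdown pair the same 4 genes had log2 fold changes of -0.25, -0.25, -0.33 and 0.48 for Pde4b, Rapgef4, Creb1 and Prkaca in that order, all called.

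Immediate early genes are switched on within minutes of neuronal firing, in part by CREB bound at cyclic AMP response elements whose core reads TGACG. The promoters of Fos, Nr4a3 and Egr4, 3 of the members that fell, are printed to show these elements. Each runs from 250 bases before to 50 bases after the start of transcription in RefSeq on GRCm38.p6. Capitals mark TGACG on the printed strand or, as CGTCA, on the other strand. The Fos promoter (chr12:85473640-85473939, plus strand) holds 2 matches, both on the printed strand. The Nr4a3 promoter (chr4:48045055-48045354, plus strand) holds 4 matches, 3 on the printed strand and 1 on the other. The Egr4 promoter (chr6:85513540-85513839, minus strand) holds 2 matches, both on the other strand.
Fos promoter: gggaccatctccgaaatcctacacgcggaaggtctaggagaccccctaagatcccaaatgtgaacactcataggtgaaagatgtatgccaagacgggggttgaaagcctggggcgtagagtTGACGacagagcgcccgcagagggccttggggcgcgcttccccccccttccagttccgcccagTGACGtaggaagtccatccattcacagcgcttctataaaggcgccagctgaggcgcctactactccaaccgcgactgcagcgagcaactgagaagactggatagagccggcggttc
Nr4a3 promoter: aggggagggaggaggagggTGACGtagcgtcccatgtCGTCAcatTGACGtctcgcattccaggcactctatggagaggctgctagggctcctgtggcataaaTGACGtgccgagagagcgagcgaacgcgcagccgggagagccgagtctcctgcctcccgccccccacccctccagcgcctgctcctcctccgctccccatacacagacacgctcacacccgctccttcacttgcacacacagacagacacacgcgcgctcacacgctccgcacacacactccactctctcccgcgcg
Egr4 promoter: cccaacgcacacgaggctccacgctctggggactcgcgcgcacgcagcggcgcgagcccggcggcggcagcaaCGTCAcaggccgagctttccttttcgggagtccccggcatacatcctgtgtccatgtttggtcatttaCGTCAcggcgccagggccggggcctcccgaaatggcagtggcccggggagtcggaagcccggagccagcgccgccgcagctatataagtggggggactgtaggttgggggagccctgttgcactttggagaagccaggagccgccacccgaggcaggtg
Of the 26 genes of the list, 20 had a promoter entry, and 16 of these held TGACG on either strand and 3 held the full palindrome TGACGTCA, whose matches also count as TGACG. Among all 32851 mouse promoter entries 20.81% hold TGACG and 1.79% hold TGACGTCA. A gene was counted if any of its entries held a match, whereas these shares are per entry, so the 2 are not like for like. The 20 genes include members that were not called. A match describes letters and not a bound site.

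Of 26 immediate early genes tested, 9 fell and 0 rose in exenatide-treated hippocampi, with a median log2 fold change of -0.26. The clearest were Egr3 and Nr4a3. Egr3, a zinc finger transcription factor, had 80.6, 86.1, 86.1, 86.5 and 93.7 CPM in the ST_A_Ex libraries. In ST_A_ctrl Egr3 had 122, 125, 126, 131 and 148 CPM. Nr4a3, an orphan nuclear receptor, had 70.5, 76.0, 77.9, 80.98 and 85.9 CPM in the ST_A_Ex libraries. In ST_A_ctrl Nr4a3 had 97.8, 106, 134, 137 and 138 CPM. For both genes every ST_A_Ex library was below every ST_A_ctrl library, with log2 fold change -0.59 ± 0.075, edgeR adjusted p = 6.08e-07 for Egr3 and log2 fold change -0.65 ± 0.11, edgeR adjusted p = 4.94e-05 for Nr4a3. Egr2 fell without overlap (20.3 to 23.2 CPM in ST_A_Ex against 26.8 to 29.3 CPM in ST_A_ctrl; log2 fold change -0.41 ± 0.084, edgeR adjusted p = 4.45e-04), and Homer1, a postsynaptic scaffold whose short form is made on firing, fell with overlapping groups (106 to 129 CPM in ST_A_Ex against 123 to 163 CPM in ST_A_ctrl; log2 fold change -0.32 ± 0.075, edgeR adjusted p = 0.00201).

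Fos, Egr1 and Egr4 fell too, with overlapping groups. Fos, a subunit of the AP-1 transcription factor, had 2.20, 2.54, 3.02, 3.24 and 3.49 CPM in the ST_A_Ex libraries. In ST_A_ctrl Fos had 3.46, 7.68, 7.86, 8.63 and 10.01 CPM, and the lowest control lay within the ST_A_Ex range (log2 fold change -1.37 ± 0.49, edgeR adjusted p = 0.0358). Egr1 had 60.1, 65.3, 66.8, 67.5 and 71.4 CPM in the ST_A_Ex libraries. In ST_A_ctrl Egr1 had 70.8, 132, 147, 154 and 157 CPM, again with 1 control within the treated range (log2 fold change -0.996 ± 0.24, edgeR adjusted p = 0.00258). The low control was the same animal, E29, for Fos, Egr1 and Egr4, and in its frontal cortex too it had the lowest value of the 5 controls for these genes. Without it the log2 fold change was -1.55 for Fos, -1.14 for Egr1 and -0.82 for Egr4. Egr4 had 12.95 to 15.8 CPM in ST_A_Ex against 13.7 to 31.4 CPM in ST_A_ctrl over all 5 controls (log2 fold change -0.69 ± 0.20, edgeR adjusted p = 0.0117). The call of Fos was lost in 9 of the 10 fits that left out an animal, with an edgeR adjusted p of up to 0.0813, and held when E29 was the animal left out.

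In the knockdown pair 3 of 26 immediate early genes fell and 2 rose, with a median of 0.08: Fos, Egr1 and Egr4 were not called there, with log2 fold changes of -0.14 ± 0.48, 0.051 ± 0.24 and 0.083 ± 0.20, while Egr3, Egr2 and Homer1 fell by 0.33, 0.65 and 0.44 on the log2 scale. The difference between the pairs did not pass the test for Fos (edgeR adjusted p = 0.539) or Egr1 (adjusted p = 0.207). In frontal cortex 0 of 26 were called, although Fos had 1.995 to 6.37 CPM in ST_A_Ex against 3.72 to 20.97 CPM in ST_A_ctrl and Egr1 80.9 to 122 CPM in ST_A_Ex against 96.0 to 331 CPM in ST_A_ctrl, and the list's median log2 fold change there was -0.45. After the trend of each library on transcript length and GC content was removed, an adjustment chosen after the data were seen, 8 members fell and 1 rose in hippocampus, and Homer1 was no longer called (-0.20, edgeR adjusted p = 0.112).

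**Figure D2:**
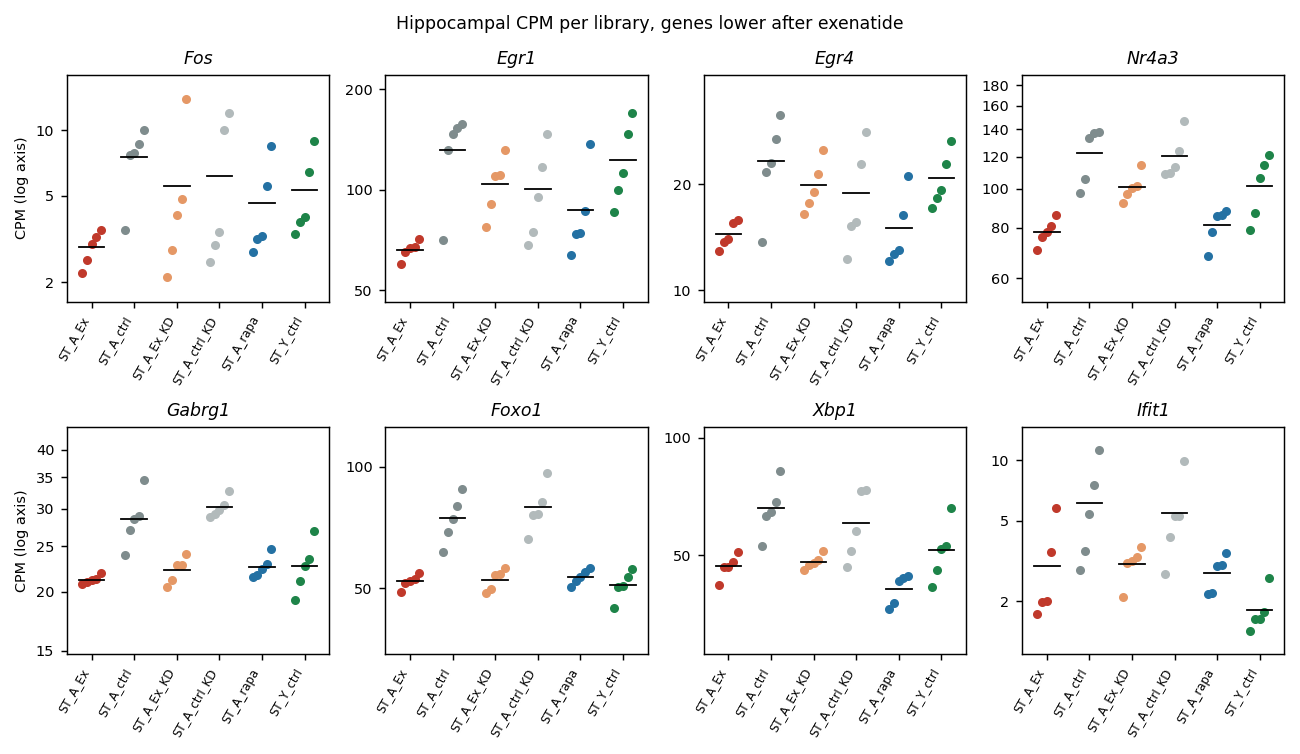
CPM per hippocampal library on log axes for 8 genes that were lower in ST_A_Ex than in ST_A_ctrl (Fos, Egr1, Egr4, Nr4a3, Gabrg1, Foxo1, Xbp1, Ifit1) in the 6 ST conditions, with a line at each group's mean (n = 5 each). Nr4a3, Gabrg1, Foxo1 and Xbp1 show no overlap between ST_A_Ex and ST_A_ctrl, and Fos, Egr1, Egr4 and Ifit1 overlap; the low ST_A_ctrl point of Fos, Egr1 and Egr4 is animal E29.

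Of 20 genes known to respond to glucocorticoids 10 rose and 3 fell, beside 14.2% and 14.4% of all genes, with a median log2 fold change of 0.30, and in the knockdown pair 8 rose and 1 fell with a median of 0.28. Leaving out each animal in turn gave 6 to 10 rising members, with 6 without the control E23, and 1 to 2 falling, and removing the length and GC trend gave 6 rising and 1 falling. Plin4, a perilipin that coats lipid droplets, had the largest rise of all annotated genes with an average log2 CPM of at least 1. It had 16.2, 21.3, 23.4, 24.1 and 34.6 CPM in the ST_A_Ex libraries. In ST_A_ctrl Plin4 had 4.18, 4.44, 4.84, 5.31 and 6.83 CPM. The groups were far apart (log2 fold change 2.23 ± 0.46, edgeR adjusted p = 6.44e-04). Plin4 also rose in the knockdown pair, with overlapping groups of 9.29 to 37.2 CPM in ST_A_Ex_KD against 3.23 to 14.1 CPM in ST_A_ctrl_KD (log2 fold change 1.53 ± 0.45, edgeR adjusted p = 0.0101), and in frontal cortex, where the groups did not overlap, with 7.81 to 17.1 CPM in ST_A_Ex against 2.21 to 4.05 CPM in ST_A_ctrl (log2 fold change 2.09 ± 0.38, edgeR adjusted p = 0.0361).

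Fkbp5, a co-chaperone of the glucocorticoid receptor that the receptor itself induces, moved the same way. Fkbp5 had 65.6, 68.7, 72.3, 72.6 and 72.7 CPM in the ST_A_Ex libraries. In ST_A_ctrl Fkbp5 had 52.6, 55.7, 58.4, 61.8 and 63.5 CPM, without overlap (log2 fold change 0.27 ± 0.067, edgeR adjusted p = 0.00275). In frontal cortex Fkbp5 had 36.3 to 41.3 CPM in ST_A_Ex against 24.6 to 27.8 CPM in ST_A_ctrl (log2 fold change 0.57 ± 0.087, edgeR adjusted p = 0.00381), and the region difference was -0.29 ± 0.073 in log2, lower in hippocampus (edgeR adjusted p = 0.0239). Gpd1, the glycerol-3-phosphate dehydrogenase of the cytosol, rose without overlap (121 to 143 CPM in ST_A_Ex against 75.7 to 116 CPM in ST_A_ctrl; log2 fold change 0.40 ± 0.088, edgeR adjusted p = 9.91e-04). Other members that rose were Hif3a, with a log2 fold change of 1.11 ± 0.41, Arrdc2 with 0.49 ± 0.13, Map3k6 with 0.39 ± 0.15, Sult1a1 with 0.40 ± 0.13, Mt1 with 0.49 ± 0.15 and the glutamine synthetase gene Glul with 0.27 ± 0.07. The clock and stress gene Per1 was at 0.015 ± 0.10 and Sgk1, a kinase induced by the receptor, at 0.33 ± 0.24, neither called. The members that fell were the pyruvate dehydrogenase kinase Pdk4 (-0.30 ± 0.11), Klf9 (-0.18 ± 0.056) and Errfi1 (-0.21 ± 0.077).

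Metallothioneins bind zinc and copper and are induced by glucocorticoids and, through metal response elements whose core reads TGCACNC or TGCGCNC (N is any base), by metals. The Mt2 promoter (chr8:94172368-94172667, plus strand, RefSeq on GRCm38.p6) is printed because Mt2 had the smallest adjusted p of the list; it holds 4 matches in capitals, 2 on the printed strand and 2 on the other. Among all 32851 promoter entries 25.7% hold either form on either strand.
Mt2 promoter: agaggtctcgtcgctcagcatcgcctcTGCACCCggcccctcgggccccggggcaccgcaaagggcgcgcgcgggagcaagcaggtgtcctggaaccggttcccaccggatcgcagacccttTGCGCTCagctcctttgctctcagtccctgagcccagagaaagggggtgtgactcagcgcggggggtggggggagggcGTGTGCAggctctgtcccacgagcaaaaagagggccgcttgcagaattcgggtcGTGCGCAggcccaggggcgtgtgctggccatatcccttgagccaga
Mt2 had 136, 146, 146, 148 and 175 CPM in the ST_A_Ex libraries. In ST_A_ctrl Mt2 had 45.2, 48.2, 52.5, 70.7 and 87.3 CPM. No library of one group reached the other (log2 fold change 1.31 ± 0.17, edgeR adjusted p = 2.81e-06). Mt3, the metallothionein of neurons and astrocytes, had 236 to 280.1 CPM in ST_A_Ex against 79.2 to 116 CPM in ST_A_ctrl, also without overlap (log2 fold change 1.34 ± 0.16, edgeR adjusted p = 3.46e-07). In frontal cortex Mt2 and Mt3 had log2 fold changes of 0.29 ± 0.21 and 0.19 ± 0.19, neither called, and the region difference was called for both, at 1.08 ± 0.13 and 1.23 ± 0.25. Their transcripts are short, with median lengths of 449.5 and 477 bases, and the metallothioneins resemble one another in sequence, so reads could be split between them.

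A pair of added comparisons, chosen after the data were seen and sharing no library with ST_A_Ex and ST_A_ctrl, set ST_A_rapa and ST_Y_ctrl against ST_A_ctrl_KD; in both the groups differ by the knockdown as well as by rapamycin or age. Plin4 was not called in either, at 0.51 ± 0.45 for ST_A_rapa and 0.11 ± 0.45 for ST_Y_ctrl, and neither was Fkbp5, at 0.093 ± 0.067 and 0.044 ± 0.067. Fkbp5 had 67.5 to 72.0 CPM in ST_A_rapa and 62.9 to 71.9 CPM in ST_Y_ctrl, against 56.3 to 79.4 CPM in ST_A_ctrl_KD. Its range was 65.6 to 72.7 CPM in ST_A_Ex and 52.6 to 63.5 CPM in ST_A_ctrl, so every ST_A_rapa library also stood above every ST_A_ctrl library. Mt2 rose in both, by 1.15 ± 0.17 and 0.78 ± 0.17 in log2, and so did Mt3, by 1.75 ± 0.16 and 1.84 ± 0.16. Egr1 was not called in either, at -0.20 ± 0.24 and 0.29 ± 0.24.

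Nuclear genes of the mitochondrial respiratory chain and ATP synthase rose at 32 of 38 tested members and fell at 0, with a median log2 fold change of 0.41, and in the knockdown pair 32 rose and 0 fell with a median of 0.47. Uqcrq, a small subunit of complex III, had 76.8, 77.0, 81.6, 84.6 and 85.3 CPM in the ST_A_Ex libraries. In ST_A_ctrl Uqcrq had 37.6, 38.9, 39.9, 45.1 and 46.5 CPM. The groups were well apart (log2 fold change 0.96 ± 0.082, edgeR adjusted p = 9.85e-10). Accessory subunits of complex I rose as well: Ndufa2 had 41.2 to 46.8 CPM in ST_A_Ex against 16.6 to 26.3 CPM in ST_A_ctrl, Ndufb3 45.1 to 48.8 CPM in ST_A_Ex against 17.8 to 28.5 CPM in ST_A_ctrl, and Ndufb9 113 to 128 CPM in ST_A_Ex against 63.3 to 82.7 CPM in ST_A_ctrl, all without overlap. Outside the 38 listed genes, Ndufb1 (1.35 ± 0.15), Uqcr11 (1.33 ± 0.16) and Atp5k (1.33 ± 0.12), the last a subunit of ATP synthase, were among the 10 largest rises of well-expressed genes. Ndufa5 (0.93 ± 0.069), also not in the list, was among the 10 genes with the smallest adjusted p. After removal of the length and GC trend 27 of 37 rose and 1 fell, with a median of 0.31.

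Genes for proteins of the cytosolic ribosome rose at 34 of 40 tested members and fell at 0, with a median log2 fold change of 0.37, and 24 rose in the knockdown pair with a median of 0.28. Rps21, of the small subunit but not among the 40 listed genes, had the smallest adjusted p of all genes. It had 211, 222, 226, 234 and 239 CPM in the ST_A_Ex libraries. In ST_A_ctrl Rps21 had 87.4, 89.5, 92.3, 92.6 and 93.5 CPM. The groups lay far apart and the values within each were close together (log2 fold change 1.31 ± 0.059, edgeR adjusted p = 3.87e-16). Rps29 had 173 to 193 CPM in ST_A_Ex against 64.8 to 77.4 CPM in ST_A_ctrl (1.36 ± 0.11), and Rpl38 had 113 to 130.5 CPM in ST_A_Ex against 44.7 to 53.3 CPM in ST_A_ctrl (1.299 ± 0.11). Rpl36, Rpl37, Rpl37a, Rpl35a and Rpl23 rose by 0.77 to 1.10 in log2, and of these Rpl36, Rpl37a and Rpl35a are not in the list. Ribosomal protein genes have many near-identical pseudogenes, so their counts are uncertain where reads could be shared. After removal of the length and GC trend 27 rose, with a median of 0.23.

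Subunits of the proteasome, the protease complex that degrades ubiquitinated proteins, rose at 12 of 31 members and fell at 0, with a median of 0.15, and 13 rose and 1 fell in the knockdown pair. Psma7 had 63.4 to 67.4 CPM in ST_A_Ex against 44.6 to 49.9 CPM in ST_A_ctrl (log2 fold change 0.49 ± 0.053, edgeR adjusted p = 3.61e-08), and the catalytic subunit Psmb5 had 75.9 to 83.9 CPM in ST_A_Ex against 40.97 to 63.2 CPM in ST_A_ctrl (log2 fold change 0.62 ± 0.079, edgeR adjusted p = 7.62e-07). Psmb7 (0.46 ± 0.065) and Psmb6 (0.43 ± 0.067) rose as well.

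**Figure D3:**
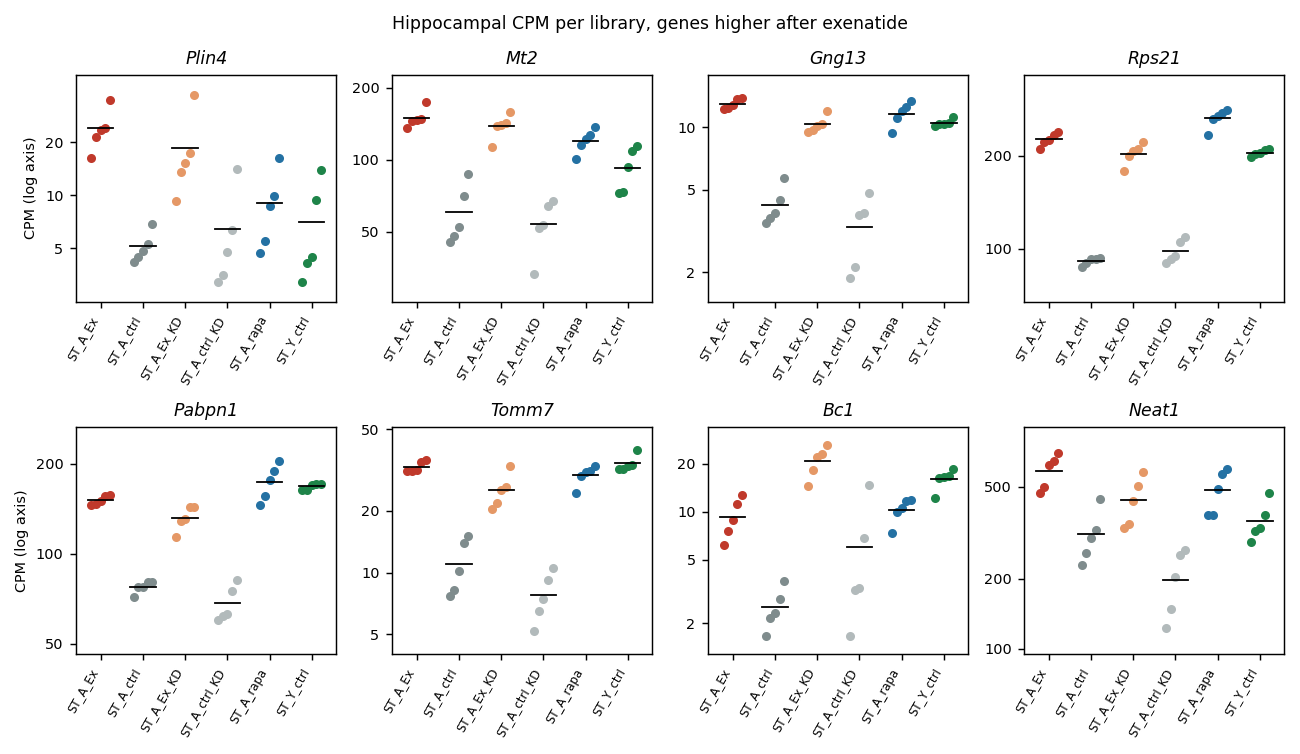
CPM per hippocampal library on log axes for 8 genes that were higher in ST_A_Ex than in ST_A_ctrl (Plin4, Mt2, Gng13, Rps21, Pabpn1, Tomm7, Bc1, Neat1) in the 6 ST conditions, with a line at each group's mean (n = 5 each). For all 8 genes the ST_A_Ex points lie above the ST_A_ctrl points; for all 8 the ST_A_rapa and ST_Y_ctrl means also lie above the ST_A_ctrl mean.

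Genes of RNA processing were mixed as a group and held some of the clearest single rises. Of 30 splicing and RNA processing genes 7 rose and 2 fell, with a median log2 fold change of -0.037, and in the knockdown pair 11 rose and 2 fell. Leaving out each animal in turn gave 6 to 7 rising and 1 to 5 falling members. Pabpn1, the nuclear poly(A)-binding protein, which is not among the 30 listed genes, had 146, 147, 150.0, 156 and 157 CPM in the ST_A_Ex libraries. In ST_A_ctrl Pabpn1 had 71.7, 77.3, 77.3, 80.2 and 80.4 CPM. All ST_A_Ex values were above the controls (log2 fold change 0.97 ± 0.081, edgeR adjusted p = 8.64e-10). Snrnp70, a core protein of the U1 snRNP, had 506 to 554 CPM in ST_A_Ex against 310.3 to 365 CPM in ST_A_ctrl (0.62 ± 0.066). Cirbp (0.89 ± 0.12), a cold-inducible RNA-binding protein, Srsf5 (0.70 ± 0.11) and Hnrnpa1 (0.53 ± 0.068) rose without overlap between the groups.

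Some noncoding RNAs of the nucleus were higher too. Of 12 nuclear noncoding and mitochondrial ribosomal RNAs 4 rose and 0 fell, with a median of 0.15, and 5 rose and 2 fell in the knockdown pair. Their summed level was 16734 to 18408 CPM in ST_A_Ex and 13735 to 16478 CPM in ST_A_ctrl, without overlap. Miat had 1169 to 1295 CPM in ST_A_Ex against 738 to 839.8 CPM in ST_A_ctrl (log2 fold change 0.63 ± 0.075, edgeR adjusted p = 2.53e-07), Meg3, an imprinted RNA of neurons, had 3925 to 4447 CPM in ST_A_Ex against 2785 to 3275 CPM in ST_A_ctrl, and Neat1, the scaffold of paraspeckles, had 472 to 699 CPM in ST_A_Ex against 229 to 445 CPM in ST_A_ctrl. Malat1 rose with overlapping groups (695 to 912 CPM in ST_A_Ex against 511 to 712 CPM in ST_A_ctrl; log2 fold change 0.47 ± 0.14, edgeR adjusted p = 0.014); in the knockdown pair it was not called, at -0.29 ± 0.14. The libraries were made from poly(A) RNA, and the share of mitochondrial ribosomal RNA overlapped, at 0.731 to 0.815% in ST_A_Ex and 0.641 to 0.857% in ST_A_ctrl.

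The called neuropeptide genes were higher, and the called receptor genes described after them lower. Of 18 neuropeptide and granin genes 6 rose and 0 fell, with a median of 0.30, and 8 rose and 0 fell in the knockdown pair. Chgb, a granin that packs peptides into dense-core vesicles, had 576, 589, 596, 639 and 644 CPM in the ST_A_Ex libraries. In ST_A_ctrl Chgb had 349.8, 442, 459, 462 and 533 CPM. The lowest treated library stood above the highest control (log2 fold change 0.44 ± 0.091, edgeR adjusted p = 5.05e-04). Chga, the related chromogranin A, had 82.7 to 95.5 CPM in ST_A_Ex against 46.2 to 81.8 CPM in ST_A_ctrl (0.40 ± 0.096), and Cort, the interneuron peptide cortistatin, had 4.20 to 4.96 CPM in ST_A_Ex against 2.33 to 3.77 CPM in ST_A_ctrl (0.68 ± 0.15). Cck rose with overlapping groups (188 to 223 CPM in ST_A_Ex against 129 to 199 CPM in ST_A_ctrl; 0.33 ± 0.099), and neuropeptide Y (0.61 ± 0.19) and proenkephalin, Penk (0.28 ± 0.11), rose as well. After removal of the length and GC trend 4 rose and 0 fell, and Cck was no longer called (0.13, edgeR adjusted p = 0.298).

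Subunits of GABA receptors, which carry fast and slow inhibition, fell at 8 of 14 members and rose at 0, with a median of -0.29; in the knockdown pair 8 fell and 0 rose. Gabrg1 had 20.7, 20.9, 21.2, 21.3 and 21.9 CPM in the ST_A_Ex libraries. In ST_A_ctrl Gabrg1 had 23.9, 27.04, 28.5, 29.02 and 34.5 CPM, with no overlap (log2 fold change -0.43 ± 0.077, edgeR adjusted p = 8.77e-05). Gabra4, an alpha subunit of extrasynaptic receptors abundant in the dentate gyrus, had 99.3 to 103 CPM in ST_A_Ex against 113 to 177 CPM in ST_A_ctrl (-0.36 ± 0.086; without the control E29 -0.20, edgeR adjusted p = 0.019). Gabbr2, of the metabotropic GABA-B receptor, had 250.1 to 280.4 CPM in ST_A_Ex against 304 to 345 CPM in ST_A_ctrl (-0.27 ± 0.065), and was not called in the knockdown pair at -0.016 ± 0.065. Glutamate receptor subunits fell at 7 of 22 members and rose at 0, with a median of -0.13, and 6 fell and 0 rose in the knockdown pair. The metabotropic receptor genes Grm3 (33.7 to 42.4 CPM in ST_A_Ex against 45.2 to 50.7 CPM in ST_A_ctrl) and Grm5 (252 to 293 CPM in ST_A_Ex against 304 to 377 CPM in ST_A_ctrl) and the NMDA receptor subunit gene Grin2a (308 to 365 CPM in ST_A_Ex against 371 to 474 CPM in ST_A_ctrl) were all lower without overlap. With the length and GC trend removed, 5 GABA and 7 glutamate receptor genes fell and 0 rose in each list, and Gabrg1 was no longer called (-0.12, edgeR adjusted p = 0.242). Beside these, the summed markers of dentate granule cells were 653 to 727 CPM in ST_A_Ex and 769.8 to 961 CPM in ST_A_ctrl, without overlap, with 4 of 12 markers falling and none of the list at 0; pyramidal neuron markers were 10383 to 12205 CPM in ST_A_Ex and 10262 to 11877 CPM in ST_A_ctrl. Neocortical markers were 743 to 814 CPM in ST_A_Ex and 818 to 903 CPM in ST_A_ctrl, and their part in the receptor results was not tested.

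In insulin and IGF signalling 7 of 19 genes fell and 0 rose, and 5 fell and 0 rose in the knockdown pair. Foxo1, a transcription factor that insulin signalling shuts out of the nucleus, had 48.9, 51.5, 52.2, 52.9 and 54.7 CPM in the ST_A_Ex libraries. In ST_A_ctrl Foxo1 had 61.7, 69.1, 74.2, 80.01 and 87.96 CPM, without overlap (log2 fold change -0.52 ± 0.081, edgeR adjusted p = 1.43e-05). The insulin receptor substrate Irs2 fell with 1 control, E29, within the treated range (72.5 to 83.7 CPM in ST_A_Ex against 81.2 to 112 CPM in ST_A_ctrl; -0.38 ± 0.07), and Irs1 (20.8 to 22.3 CPM in ST_A_Ex against 24.5 to 28.7 CPM in ST_A_ctrl; -0.27 ± 0.054) and the kinase gene Gsk3b (193 to 224 CPM in ST_A_Ex against 229.9 to 276 CPM in ST_A_ctrl; -0.31 ± 0.073) fell without overlap. The receptors themselves were not called, with log2 fold changes of 0.012 ± 0.065 for Insr and 0.06 ± 0.077 for Igf1r. The list's median was -0.024, close to that of all genes, and 5 fell and 0 rose after removal of the length and GC trend.

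Chaperones and quality control genes of the endoplasmic reticulum fell at 10 of 19 members and rose at 1, with a median of -0.18; in the knockdown pair 7 fell and 2 rose. Xbp1, a transcription factor of the unfolded protein response, had 42.1, 46.6, 46.8, 48.2 and 50.9 CPM in the ST_A_Ex libraries. In ST_A_ctrl Xbp1 had 52.98, 63.2, 64.6, 68.3 and 81.9 CPM, without overlap (log2 fold change -0.50 ± 0.12, edgeR adjusted p = 0.00184). Sel1l (198 to 213 CPM in ST_A_Ex against 234 to 244 CPM in ST_A_ctrl; -0.21 ± 0.05) and Syvn1 (44.7 to 47.9 CPM in ST_A_Ex against 47.9 to 60.1 CPM in ST_A_ctrl; -0.24 ± 0.059), both of the complex that returns misfolded proteins to the cytosol, fell, and so did the chaperone genes Hsp90b1 (225 to 241 CPM in ST_A_Ex against 258 to 305 CPM in ST_A_ctrl; -0.30 ± 0.073) and Hspa5 (-0.39 ± 0.13). Manf, a secreted stress-induced factor, was the member that rose (0.29 ± 0.11). After removal of the length and GC trend 6 members fell and 0 rose, and Hsp90b1 was no longer called (-0.22, edgeR adjusted p = 0.0804).

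Of 25 interferon-stimulated genes 6 fell and 0 rose, with a median of -0.41, while 1 fell and 0 rose in the knockdown pair. Ifit1, an antiviral protein that binds foreign RNA, had 1.73, 1.99, 2.001, 3.50 and 5.79 CPM in the ST_A_Ex libraries. In ST_A_ctrl Ifit1 had 2.86, 3.54, 5.44, 7.52 and 11.3 CPM. The groups overlapped (log2 fold change -1.04 ± 0.34, edgeR adjusted p = 0.0231). The RNA sensor gene Ifih1 had 4.26 to 7.89 CPM in ST_A_Ex against 6.12 to 8.71 CPM in ST_A_ctrl (-0.44 ± 0.17), and Trim30a 3.41 to 5.28 CPM in ST_A_Ex against 4.41 to 8.39 CPM in ST_A_ctrl (-0.55 ± 0.19), both with overlap. This count moved with the libraries used: 0 to 8 members fell when 1 animal was left out, with 0 without the control E13, 0 without the treated animal E5 and 8 without the control E29. Without E13 the log2 fold change was -0.69, edgeR adjusted p = 0.13 for Ifit1, -0.34, edgeR adjusted p = 0.151 for Ifih1 and -0.36, edgeR adjusted p = 0.167 for Trim30a, and the calls were lost in 5, 8 and 6 of the 10 fits without 1 animal for these genes in that order. Members that fell numbered 2 with no filter, 1 in the fit of 2 groups, 12 with limma-voom and 3 after removal of the length and GC trend, where Ifit1 (-0.90, edgeR adjusted p = 0.0608) and Ifih1 (-0.28, edgeR adjusted p = 0.229) were no longer called. Of 14 markers of homeostatic microglia, the resident immune cells of the brain, 4 fell and 0 rose (2 fell in the knockdown pair), and their sum was 625 to 721 CPM in ST_A_Ex and 702 to 923 CPM in ST_A_ctrl, with overlap. Sall1, a transcription factor of microglial identity, had 29.8 to 35.3 CPM in ST_A_Ex against 37.1 to 40.8 CPM in ST_A_ctrl (-0.24 ± 0.06), without overlap; P2ry12 (-0.27 ± 0.076) and Gpr34 (-0.25 ± 0.089) fell with overlap. With the same trend removed Sall1 (-0.17, edgeR adjusted p = 0.0727), P2ry12 (-0.053, edgeR adjusted p = 0.596) and Gpr34 (-0.016, edgeR adjusted p = 0.904) were no longer called, nor were P2ry12 (-0.17, edgeR adjusted p = 0.0734) and Gpr34 (-0.16, edgeR adjusted p = 0.19) without the control E29; Gpr34 lost its call in 8 of the 10 fits without 1 animal. Of 17 activated microglia and macrophage genes 1 rose, Tyrobp (12.6 to 16.8 CPM in ST_A_Ex against 7.34 to 12.7 CPM in ST_A_ctrl; log2 fold change 0.72 ± 0.17, edgeR adjusted p = 0.00173), while its receptor partner Trem2 was not called (0.29 ± 0.14).

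Of 18 oligodendrocyte and myelin genes 3 rose and 1 fell, while 0 rose and 2 fell in the knockdown pair, and 1 rose and 0 fell once the length and GC trend was removed, which ended the calls of Ugt8a (-0.17, edgeR adjusted p = 0.419), Cnp (0.32, edgeR adjusted p = 0.0571) and Cldn11 (0.39, edgeR adjusted p = 0.0609). Leaving out each animal in turn gave 1 to 6 rising members, the highest without the control E13, and 0 to 1 falling, and ended the calls of Ugt8a, Cnp and Cldn11 in 4, 5 and 7 of 10 fits in that order. The summed markers were 8701 to 10774 CPM in ST_A_Ex and 6722 to 10181 CPM in ST_A_ctrl, with overlap. Mbp, a structural protein of compact myelin, had 3404, 3507, 3602, 4089.6 and 4214 CPM in the ST_A_Ex libraries. In ST_A_ctrl Mbp had 1993, 2575, 2759, 3173 and 3275 CPM, without overlap (log2 fold change 0.45 ± 0.13, edgeR adjusted p = 0.00811). Ugt8a, which makes the myelin lipid galactosylceramide, moved the other way, with 69.3 to 82.8 CPM in ST_A_Ex against 89.7 to 114 CPM in ST_A_ctrl (log2 fold change -0.41 ± 0.14, edgeR adjusted p = 0.0239). Cnp (0.37 ± 0.13) and Cldn11 (0.40 ± 0.15) rose with overlapping groups. Of 13 ependymal genes, which serve the cilia of the cells lining the ventricles, 4 rose and 0 fell, with a median of 0.56. They were at low levels, as Meig1 had 1.55 to 2.55 CPM in ST_A_Ex against 0.474 to 1.46 CPM in ST_A_ctrl, Ccdc153 4.01 to 9.12 CPM in ST_A_Ex against 1.88 to 4.88 CPM in ST_A_ctrl, Rsph1 3.76 to 6.90 CPM in ST_A_Ex against 1.51 to 4.13 CPM in ST_A_ctrl and Tmem212 2.39 to 5.41 CPM in ST_A_Ex against 0.653 to 2.47 CPM in ST_A_ctrl. Leaving out each animal in turn gave 2 to 6 rising members, 6 without the control E13 and 2 without the treated animal E5, and the call was lost in 5 of 10 such fits for Tmem212 and 2 for Rsph1. In the knockdown pair 0 ependymal genes rose and 0 fell, with a median of -0.059. The summed ependymal markers were 33.4 to 66.9 CPM in ST_A_Ex and 22.6 to 43.8 CPM in ST_A_ctrl, and how much ventricular lining each dissection held was not tested.

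**Figure D4:**
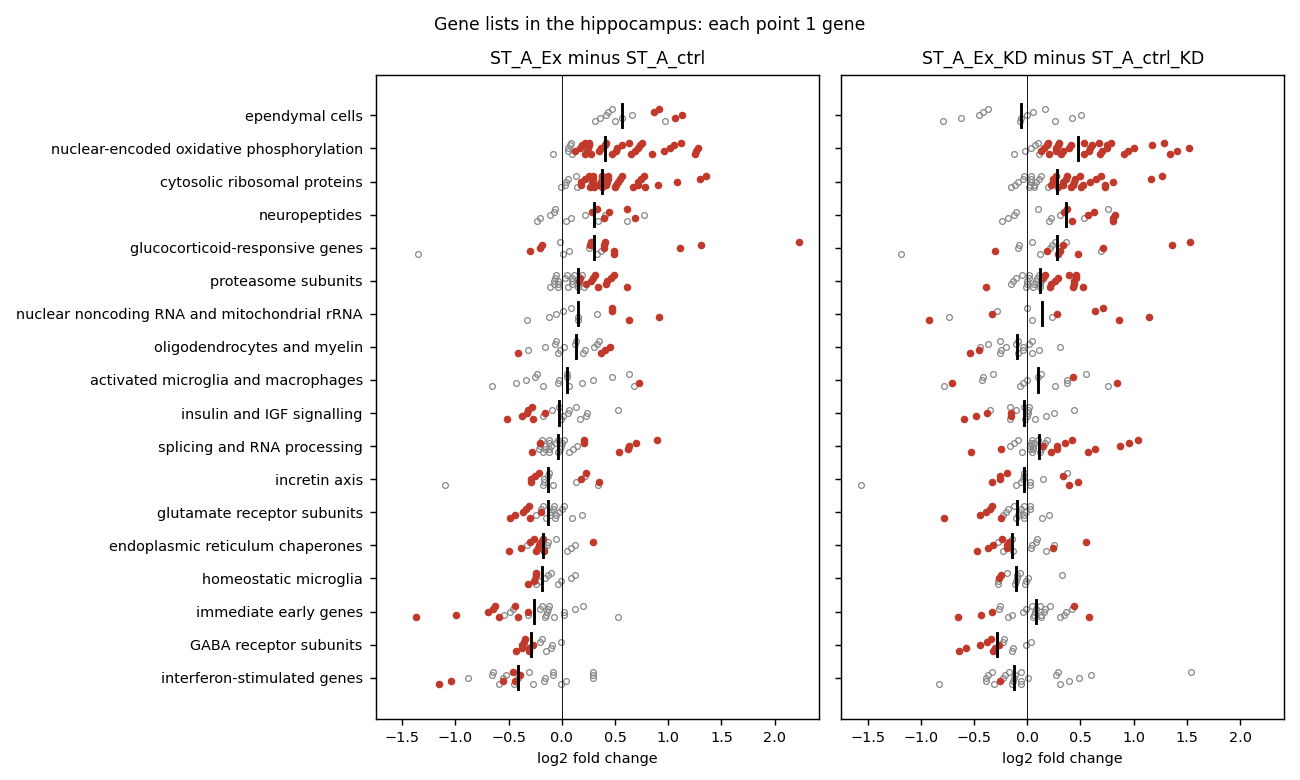
Log2 fold change of each tested member of 18 gene lists in hippocampus, ST_A_Ex minus ST_A_ctrl (left) and ST_A_Ex_KD minus ST_A_ctrl_KD (right); filled red points passed an adjusted p under 0.05, open points did not, and black bars are list medians. Oxidative phosphorylation and ribosomal protein genes lie to the right in both pairs, GABA receptor subunits to the left in both, and the median of immediate early genes is -0.26 on the left and 0.08 on the right.

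Across all 48 lists, 849 different genes were tested, and 155 rose and 124 fell, beside 14.2% and 14.4% of all tested genes. The 30 lists not described above include the cytosolic chaperones, with 9 of 22 genes lower and 2 higher, the circadian clock, with 5 of 18 lower, and the mTOR pathway, with 3 of 18 higher and 4 lower. Of 16 genes of adult neurogenesis 2 fell and 0 rose, of 18 astrocyte markers 2 rose and 3 fell, and of 8 MHC class II genes none was called. Erythroid markers summed to 340.3 to 362 CPM in ST_A_Ex and 233 to 292 CPM in ST_A_ctrl, without overlap, with 2 of 8 members rising; the blood left in each tissue was not tested.

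The remaining large changes involved genes of varied function. Bc1, a short noncoding RNA that represses translation in dendrites, had 6.23, 7.54, 8.87, 11.2 and 12.9 CPM in the ST_A_Ex libraries. In ST_A_ctrl Bc1 had 1.66, 2.15, 2.31, 2.83 and 3.67 CPM, without overlap (log2 fold change 1.90 ± 0.38, edgeR adjusted p = 4.54e-04). It lacks the usual poly(A) tail of messenger RNA, and its counts come from a poly(A) library. Gng13, a G protein gamma subunit, had 12.2 to 13.8 CPM in ST_A_Ex against 3.45 to 5.67 CPM in ST_A_ctrl (log2 fold change 1.62 ± 0.16, edgeR adjusted p = 7.70e-09), Tomm7, of the mitochondrial import pore, 31.2 to 35.3 CPM in ST_A_Ex against 7.72 to 15.001 CPM in ST_A_ctrl (log2 fold change 1.58 ± 0.16, edgeR adjusted p = 3.43e-08), and Pet100, an assembly factor of complex IV, 11.7 to 15.004 CPM in ST_A_Ex against 4.82 to 6.90 CPM in ST_A_ctrl (log2 fold change 1.20 ± 0.097, edgeR adjusted p = 4.63e-10). Lnpep, the insulin-regulated aminopeptidase, had 5.94, 10.1, 17.5, 43.1 and 48.6 CPM in the ST_A_Ex libraries. In ST_A_ctrl Lnpep had 6.36, 7.95, 9.05, 10.8 and 10.96 CPM. Of the treated libraries 1 was under all controls, 1 lay among them and 3 were above them (log2 fold change 1.48 ± 0.49, edgeR adjusted p = 0.0249). Its call was lost when animal E25, E31 or the control E29 was left out, with edgeR adjusted p of 0.0799, 0.102 and 0.0613, and also with limma-voom (0.86, adjusted p = 0.377) and in the edgeR fit of the 2 groups alone (1.49, adjusted p = 0.0957).

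Among the falls outside the lists, Mid1, an E3 ubiquitin ligase of microtubules, had 7.25, 7.79, 7.97, 8.38 and 8.68 CPM in the ST_A_Ex libraries. In ST_A_ctrl Mid1 had 11.4, 13.8, 14.8, 16.5 and 17.2 CPM. All treated libraries were lower (log2 fold change -0.88 ± 0.15, edgeR adjusted p = 7.34e-05), whereas the knockdown pair overlapped at 10.8 to 13.1 CPM in ST_A_Ex_KD against 9.21 to 13.6 CPM in ST_A_ctrl_KD (-0.033 ± 0.15); the difference between the pairs did not pass the test (edgeR adjusted p = 0.109). Yod1, a deubiquitinase, fell in both pairs, with 7.36 to 9.35 CPM in ST_A_Ex against 12.4 to 15.6 CPM in ST_A_ctrl (log2 fold change -0.73 ± 0.10, edgeR adjusted p = 3.09e-06) and 8.88 to 11.5 CPM in ST_A_Ex_KD against 13.8 to 22.8 CPM in ST_A_ctrl_KD (log2 fold change -0.77 ± 0.10, edgeR adjusted p = 9.46e-07). Atp6v0c-ps2, a pseudogene of a proton pump subunit, fell (3.09 to 4.62 CPM in ST_A_Ex against 8.06 to 10.7 CPM in ST_A_ctrl; log2 fold change -1.31 ± 0.16, edgeR adjusted p = 2.94e-07), though its reads may belong to its parent gene. Ifi203, an interferon-inducible gene of a family of close copies, had 4.10 to 5.19 CPM in ST_A_Ex against 6.14 to 10.6 CPM in ST_A_ctrl (-0.82 ± 0.18), the immunoglobulin heavy chain gene Ighm 12.7 to 17.4 CPM in ST_A_Ex against 18.4 to 46.2 CPM in ST_A_ctrl (-0.80 ± 0.24; without the control E13 -0.48, edgeR adjusted p = 0.0997), and the zinc finger gene Zmym1 11.3 to 15.9 CPM in ST_A_Ex against 15.8 to 30.6 CPM in ST_A_ctrl (-0.86 ± 0.19).

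The knockdown pair gives the same comparison in aged mice with the receptor knocked down in the hypothalamus. ST_A_Ex_KD differed from ST_A_ctrl_KD at 5810 genes (31.3% of those tested), 2996 higher (16.1%) and 2814 lower (15.1%). These libraries are different animals from the first pair, but ST_A_ctrl_KD are among the aged control hippocampi that stood apart from the other groups. Exenatide and that difference cannot be told apart in the knockdown pair either. Of the 2630 genes that rose in ST_A_Ex, 1809 rose in ST_A_Ex_KD (68.8%, and 60.4% of the 2996) and 14 fell. Of the 2681 genes that fell, 1690 fell in the knockdown pair (63.0%, and 60.1% of the 2814) and 3 rose. The test of the difference between the 2 exenatide effects called 8 genes (0.0430%), 4 upward and 4 downward (0.0215% each), with 2028 genes at an unadjusted p under 0.05. Of the 8, 4 carry annotated names and a lower log2 fold change without the knockdown than with it: the splicing factor Sf3b4, with a difference of -0.48 ± 0.082 in log2, the RNA-binding protein Elavl1 (-0.42), Tlcd3b (-0.40) and the sodium pump subunit Atp1b2 (-0.31). None of the 98 genes named for the first pair was among the 8. A difference that misses the threshold does not show that the pairs respond alike.

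The rapamycin and young groups show how far such overlaps extend to comparisons without exenatide. Below, "with rapamycin" and "in the young" name the comparisons with ST_A_ctrl_KD, in which the knockdown differs as well. ST_A_rapa against ST_A_ctrl_KD called 6793 genes (36.5%), 3400 higher and 3393 lower (18.3% each), and ST_Y_ctrl against ST_A_ctrl_KD called 7725 (41.6%), 3986 higher (21.4%) and 3739 lower (20.1%). Of the 2630 genes higher in ST_A_Ex than in ST_A_ctrl, 1889 were higher in ST_A_rapa than in ST_A_ctrl_KD (71.8%, and 55.6% of the 3400) and 5 lower. Of the 2681 genes lower in ST_A_Ex, 1916 were lower in ST_A_rapa (71.5%, and 56.5% of the 3393) and 8 higher. In the young group 1861 of the 2630 rose (70.8%, and 46.7% of the 3986) and 91 fell, and 1678 of the 2681 fell (62.6%, and 44.9% of the 3739) and 30 rose. Gene lists moved without exenatide too. With rapamycin 32 of 38 oxidative phosphorylation genes and 37 of 40 ribosomal protein genes rose, and 33 and 24 rose in the young. Neuropeptide genes rose at 10 of 18 members with rapamycin and at 11 in the young. GABA receptor genes fell at 10 of 14 members in each. Members that moved the other way were 2 neuropeptide genes with rapamycin and 5 ribosomal protein genes in the young. Single genes show the same: Rps21 rose by 1.05 ± 0.059 in log2 in the knockdown pair, by 1.43 ± 0.06 with rapamycin and by 1.06 ± 0.059 in the young, and Pabpn1 by 0.95 ± 0.081, 1.35 ± 0.082 and 1.299 ± 0.082. Foxo1 fell in all 3, with -0.60 ± 0.081, -0.58 ± 0.081 and -0.64 ± 0.081. These 3 comparisons share the ST_A_ctrl_KD libraries. Markers of other cells moved with them: choroid plexus markers rose at 18 of 18 members in the young, with a median log2 fold change of 4.10, and at 0 with rapamycin, and homeostatic microglial markers fell at 10 of 14 members in the young and 11 with rapamycin. Their part in these overlaps was not tested.

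In the frontal cortex of the same animals far fewer genes were called at the same threshold. Of 18227 tested 5 were called (0.0274%), 2 upward (0.0110%) and 3 downward (0.0165%), with 2925 at an unadjusted p under 0.05. Plin4 and Fkbp5 rose, and the genes that fell were Nr2e1, a nuclear receptor of neural stem cells (-0.54 ± 0.094), Trib2, a pseudokinase (-0.51 ± 0.091), and Lrp8, a reelin receptor (-0.28 ± 0.054). The count was far from stable: other fits called from 4 to 620 genes, and leaving out 1 animal gave 1 to 307, with 307 without the treated animal E31 and 151 without the control E29.

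The effects in the regions differed at 1088 of 18281 genes (5.95%), 697 (3.81%) with a higher log2 fold change in hippocampus than in frontal cortex and 391 (2.14%) with a lower one, in a test that kept each animal as a block. With DESeq2's size factors the split was 613 and 572. Rps21 differed by 1.25 ± 0.15 in log2 (edgeR adjusted p = 5.45e-04), with 63.7 to 122 CPM in ST_A_Ex against 63.0 to 93.6 CPM in ST_A_ctrl in frontal cortex, and Pabpn1 by 0.81 ± 0.10 (edgeR adjusted p = 1.27e-04), with 54.8 to 82.1 CPM in ST_A_Ex against 48.7 to 66.2 CPM in ST_A_ctrl. Bc1 had the largest difference of the named genes, 3.06 ± 0.20, with 1.87 to 3.88 CPM in ST_A_Ex against 3.88 to 9.23 CPM in ST_A_ctrl in frontal cortex. Of the 98 named genes, 39 had a called region difference. They were named mostly for their change in these same hippocampi, which is 1 part of the region difference. The choice itself therefore raises this count. For Plin4 the difference was 0.13 ± 0.13 and for Fos 0.71 ± 0.28, neither called. In frontal cortex the 2 groups overlapped in depth, at 23.7 to 26.4 M counts in ST_A_Ex and 23.3 to 25.7 M in ST_A_ctrl, and in the balance of short and long transcripts, at -0.0986 to 0.160 in ST_A_Ex and -0.129 to 0.0345 in ST_A_ctrl. In hippocampus they overlapped in neither. A regional effect of exenatide therefore cannot be told apart from the difference between the hippocampal libraries.

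The other cohorts offer independent hippocampi under exenatide. LT_A_Ex against LT_A_ctrl (n = 8 and 9) called 0 of 17601 genes (0.00%) with edgeR and 16 with DESeq2's Wald test, with 1290 at an unadjusted p under 0.05, and YA_Ex against YA_ctrl (n = 8 each) called 0 of 16802 (0.00%) with edgeR and 6 with DESeq2, with 266 under 0.05. Plin4 was at -0.94 ± 0.38 in LT and 1.24 ± 0.30 in YA (edgeR adjusted p = 0.595 in LT and 1 in YA), Fos at 0.53 ± 0.18 and 0.16 ± 0.34, and Rps21 at -0.021 ± 0.14 and 0.0013 ± 0.35. Age itself, LT_A_ctrl against LT_Y_ctrl, called 71 genes (0.403%), 57 higher (0.324%) and 14 lower (0.0795%) in the aged. Of these 71, 18 were called with short-term exenatide (25.4%, beside 28.6% of all genes), 14 in the direction of age and 4 in the opposite one. The YA mice were young adults, whereas the ST mice compared here were aged. The LT mice were given exenatide for a long term and the ST mice for a short one. The cohorts were sequenced in different batches. A difference between their results therefore cannot be told apart from batch, for LT from the duration of treatment or for YA from age.

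Transcript length and GC content moved with the hippocampal result. The median log2 fold change of ST_A_Ex against ST_A_ctrl was 0.13 for the 294 genes with median transcript lengths under 500 bases and -0.13 for the 1114 genes at 4000 bases or more; in frontal cortex these medians were 0.074 and -0.038. By GC content it was -0.25 for the 380 genes under 40% and 0.083 for the 2912 genes at 55 to 60%. When the trend of each library on both properties was removed as an offset, over the 16461 genes (88.6%) with a length and GC value, 1901 genes rose and 2428 fell. Of the 2262 rising genes with such values 1545 were also called upward and 0 downward, and of the 2588 falling genes 1622 were also called downward and 0 upward. The 10 largest rises had a median transcript length of 520 bases over the 9 with a length. Plin4, with 5756 bases, and Lnpep, with 2714 bases, were exceptions above the median of 1506 bases for all tested genes.

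**Figure D5:**
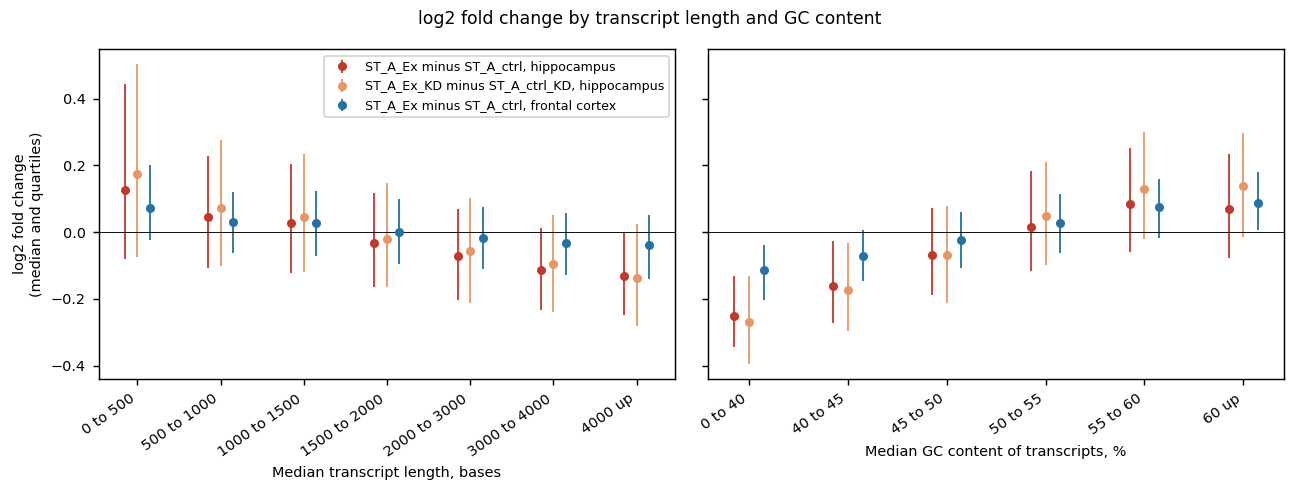
Median log2 fold change with quartiles of the genes in each bin of median transcript length in bases (left) and GC content of transcripts in % (right), for ST_A_Ex minus ST_A_ctrl in hippocampus (red), ST_A_Ex_KD minus ST_A_ctrl_KD in hippocampus (orange) and ST_A_Ex minus ST_A_ctrl in frontal cortex (blue). Medians fall with length in all 3 comparisons and rise with GC content up to 60%, over a narrower range in frontal cortex than in hippocampus.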

How the data were processed

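Each library was given its group from its title and tissue. Per the labels' protocols, poly(A) RNA from tissue kept in RNAlater, extracted with TRIzol or RNAqueous, was made into libraries with NEBNext Ultra II, which does not mark strand, so genes overlapping on opposite strands are uncertain. Per the submitters' processing notes, the build was GRCm39 and FastQC 0.11.9 was used; aligner, counter and annotation are not given in the sources used here. Whole-number counts were deposited by the authors for LT and estimated counts for ST and YA (7.50% of non-zero ST hippocampal values not whole), which were rounded. Hippocampal totals were 22.7 to 56.2 M in ST.

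Counts were tested with edgeR 4.0.16 (TMM, filterByExpr, robust quasi-likelihood fit over all 6 ST conditions, Benjamini-Hochberg adjustment, threshold 0.05) in R 4.3.3, with standard errors taken as the absolute log2 fold change over the square root of F, LT with a batch term, regions with animal as a block; all ST tissues were 1 sequencing batch. Libraries of 1 group came from separate animals and differed by more than sampling noise. Alternatives were DESeq2 1.42.0 size factors and Wald test, no filter, limma 3.58.1 voom with sample weights, fits of 2 groups and leaving out each animal; a length and GC offset (splines with 4 degrees of freedom), thinning to 22.7 M counts and the ST_A_rapa and ST_Y_ctrl comparisons were added after the data were seen. Named genes were the 10 largest rises and 10 largest falls (average log2 CPM of at least 1), the 10 smallest adjusted p, in each of 18 lists the 4 members lowest in adjusted p, Glp1r, and up to 5 per other comparison, leaving out predicted names; members named beyond these were chosen after their values were seen. Some genes that the rule picked are not reported here, and remain in the counts. The comparison and the gene lists were chosen with earlier results of these data known. Promoters came from RefSeq (GRCm38.p6), of another build than the files, so they are tied to genes by symbol only. Steps were tested on simulated counts.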

Additional observations from a re-analysis of the deposited data

Results flagged for a closer look

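In 11 of 194 groups of 5 hippocampal values, each a named gene or a measure of the libraries in ST_A_Ex or ST_A_ctrl, 1 library stood farther from the other 4 than Dixon's 95% critical value allows; chance flags about 1 group in 20. Of the 11, all for genes, 4 were the control E29: it was low for Fos (3.46 CPM, with the other 4 at 7.68 to 10.01 CPM), Egr1 (70.8 CPM, with the other 4 at 132 to 157 CPM) and the insulin receptor substrate gene Irs2 (81.2 CPM, with the other 4 at 104 to 112 CPM), and high for the GABA receptor subunit gene Gabra4 (177 CPM, with the other 4 at 113 to 121 CPM). The treated animal E7 also accounted for 4: Ndufb3 was low (45.1 CPM, with the other 4 at 48.0 to 48.8 CPM), as was Hnrnpa1 (211 CPM, with the other 4 at 223 to 227 CPM), while Trim30a (5.28 CPM, with the other 4 at 3.41 to 3.82 CPM) and the macrophage scavenger receptor gene Cd163 (3.52 CPM, with the other 4 at 1.27 to 1.68 CPM) were high. The treated animal E31 was low for the ribosomal protein genes Rpl36 (78.4 CPM, with the other 4 at 89.4 to 93.9 CPM) and Rpl35a (99.6 CPM, with the other 4 at 108 to 112 CPM). Among controls, E23 was low for Srsf5 (129.7 CPM, with the other 4 at 154 to 159.8 CPM).

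The log2 fold change of ST_A_Ex against ST_A_ctrl in hippocampus minus that in frontal cortex passed the test for 40 genes named here. Most were named for their hippocampal change, which enters this difference, so the choice raises the count. The difference was positive for the oxidative phosphorylation and mitochondrial genes Uqcr11 (1.21), Tomm7 (1.29), Pet100 (1.17), Ndufb1 (1.15), Uqcrq (0.80), Ndufb3 (0.68), Ndufa5 (0.68), Ndufb9 (0.61) and Lars2 (1.26). Among ribosomal protein and proteasome genes it was positive for Rps21 (1.25), Rpl37 (0.94), Rpl35a (0.87), Rpl36 (0.79), Rpl37a (0.69), Rpl23 (0.53), Psma7 (0.41) and Psmb5 (0.39). RNA-binding protein and splicing genes with a positive difference were Pabpn1 (0.81), Taf15 (0.72), Snrnp70 (0.49), Cirbp (0.48) and Hnrnpa1 (0.31), and the noncoding RNAs were Bc1 (3.06), Malat1 (0.76), Meg3 (0.53) and Miat (0.51). The remaining positive differences were Gng13 (1.36), Mt3 (1.23), Mt2 (1.08), Morf4l1b (0.84), Tyrobp (0.67) and Mbp (0.43). Differences were negative for Atp6v0c-ps2 (-1.28), Yod1 (-0.67), Mid1 (-0.48), Foxo1 (-0.43), Gabbr2 (-0.32), Pde4b (-0.31), Fkbp5 (-0.29) and Xbp1 (-0.26). The reads of Morf4l1b may be shared with a near-identical copy. The log2 fold change without the knockdown minus that with it passed the test for the named genes Sf3b4 (-0.48), Elavl1 (-0.42), Tlcd3b (-0.40) and Atp1b2 (-0.31).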

How the results depend on the processing

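The count of 5311 genes for ST_A_Ex against ST_A_ctrl stayed within 1.5 times under every alternative run, at 4329 to 6360 genes, and at 4495 to 5239 when 1 animal was left out; the counts of the knockdown pair (4956 to 6259 without 1 animal), of ST_A_rapa (6049 to 7154) and ST_Y_ctrl (6930 to 8183) against ST_A_ctrl_KD and of list genes (235 to 274, beside 279) did so too. The small counts did not, and the cause was not tested. For the interaction of exenatide with the knockdown, 8 genes became 133 with DESeq2's Wald test, 29 with limma-voom and 2 with the length and GC trend removed, and 0 to 197 without 1 animal, the highest without the knockdown control E21. In frontal cortex 5 genes became 212 with DESeq2's Wald test, 620 with limma-voom, 14 in a fit of the 2 groups alone, 104 with the trend removed and 1 to 307 without 1 animal, with 307 without the treated animal E31 and 151 without the control E29. For the region difference 1088 genes became 1757 with no filter, and 484 (without the control E23) to 1954 (without the treated animal E5) when 1 animal was left out; the animal was a block in this fit. LT_A_Ex went to 16 and YA_Ex to 6 genes with DESeq2, and age in LT to 109 with no filter and 187 with DESeq2.

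Of the 98 named genes none reversed. Calls were lost by 1 gene with DESeq2's size factors, 8 with no filter, 0 with DESeq2, 1 with limma-voom, 5 in the fit of 2 groups, 13 of 97 with the length and GC trend removed and 2 at one depth, and in 66 of 980 fits of a named gene without 1 animal. Gpr34, Ifih1, Cldn11 and Fos lost theirs in at least 10 settings each. No paired analysis was possible because each animal belongs to 1 condition and replicate numbers follow accession order. Depth limits Glp1r, whose reads per library were few.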
